A study of Mus musculus with 4 samples.

Results

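The receptors that bind the constant part of IgG and IgE were examined on the arrays of BALF cells, which are rinsed out of the airways and alveoli. The group holds 9 mouse genes, Fcgr1, Fcgr2b, Fcgr3, Fcgr4, Fcgrt, Fcer1a, Fcer1g, Fcer2a and Ms4a2. A probe, the short DNA strand on the array that captures 1 transcript, was taken as a member where its transcript accession belonged to 1 of these genes in the RefSeq table of GRCm38.p6. This gave 9 probes, 1 for each gene, of 39429 on the array. Of the 9 member probes, 7 passed the filter on dim signals and were tested. Each of these 7 was well above background on 4 of 4 arrays, so that none entered through 1 genotype alone.

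Fc receptors join antibodies to the cells of innate immunity. Fcgr1, Fcgr3 and Fcgr4 are ligand-binding chains that signal through the shared gamma chain Fcer1g, whose ITAM motif recruits the kinase Syk once receptors are crosslinked by immune complexes. Fcgr2b is the inhibitory IgG receptor, with an ITIM motif that recruits the lipid phosphatase Inpp5d, and it sets the threshold of the activating receptors on macrophages. Fcgrt, the neonatal Fc receptor, pairs with B2m and returns IgG from endosomes to the cell surface. Fcer1a and Ms4a2 are the alpha and beta chains that complete the high-affinity IgE receptor of mast cells and basophils. Fcer2a, or CD23, is the low-affinity IgE receptor, a C-type lectin best known on B cells, where its transcription is induced by IL-4 and STAT6. Macrophages of the airspaces carry several IgG receptors and take up opsonized particles through them.

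There were 4 one-color arrays, 2 from wild-type mice and 2 labelled S1pr2-/-, the whole-body null of the sphingosine-1-phosphate receptor S1PR2. The mice were 8 to 10 weeks old when the bleomycin injections began. They were on a mixed 129Ola and C57BL/6J background, and the wild-type mice were littermates. All 4 arrays came from mice given bleomycin at 0.035 U/g by repeated intraperitoneal injection, with cells taken on day 22, so that no array of mice without bleomycin enters any comparison. The labels name the cells alveolar macrophages, and 12 of 12 alveolar macrophage markers were tested. Their summed signal was 751 to 794 times the 75th percentile on the wild-type arrays and 733 to 799 times on the arrays labelled S1pr2-/-. Both arrays labelled S1pr2-/- were lower for 3 markers and higher for 3 (21.8% and 20.0% of all tested probes), and 6 overlapped. The log2 differences of these markers ran from -0.77 to 0.58 with a median of -0.02. Whether an array holds 1 mouse or a pool is not given in the sources used here, so p-values measure only the spread between these arrays. The design text counts the experiments as 2 independent ones. The array headers give 1 slide and 1 scan, so no batch of that kind could be tested.

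Values are the processed intensity of a probe over the 75th percentile of its array, on the log2 scale, and a difference is the mean of the arrays labelled S1pr2-/- minus that of the wild-type arrays. Scaled signals below a floor of 0.01 were raised to it before taking logs. A probe counts as well above background where the scanner software marked its spots so against the local background. Differences were tested with limma, a linear model fitted to all tested probes at once, with Benjamini-Hochberg adjustment. Over the 27154 tested probes the mean absolute log2 difference between replicate arrays was 0.209 for wild-type and 0.199 for the arrays labelled S1pr2-/-. The probe of the targeted gene went against the label. S1pr2 read -0.13 and -0.16 on the log2 scale in wild-type cells against 2.67 and 2.54 in cells labelled S1pr2-/-, a log2 difference of 2.75 (SE 0.0724, limma adjusted p = 0.333). Whether this probe lies within the deleted sequence is not given in the sources used here, and every direction below follows the labels. If the labels of the 2 genotypes were exchanged, each direction would turn. Of the 10 marker lists, that of eosinophils had the largest median difference (-4.47 on the log2 scale), with a summed signal of 5.58 to 13.3 times the 75th percentile on the wild-type arrays and 2.34 to 3.67 times on the arrays labelled S1pr2-/-. Ear6, with a log2 difference of -0.79, took 3.5 and 6.65 times of these sums against 2.23 and 3.48 times. In bulk samples, fewer cells of a type and less RNA per cell cannot be told apart.

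The windows before the transcription starts of 6 members are shown because the results turn on them. Fcgr2b and Fcgr4 are neighbours on chromosome 1 whose values differed in opposite directions, Fcer1g, Fcer1a and Ms4a2 encode the chains of 1 receptor of which only the first gave a signal above background, and Fcer2a had the largest difference. Each window holds the 250 bases before the start, read 5′ to 3′ on the strand of the gene, from RefSeq on GRCm38.p6, and all 9 members matched. They lie at chr1:170976072-170976321 (minus strand) for Fcgr2b, chr1:171018676-171018925 (plus strand) for Fcgr4, chr1:171234350-171234599 (minus strand) for Fcer1g, chr1:173227230-173227479 (minus strand) for Fcer1a, chr19:11623720-11623969 (minus strand) for Ms4a2 and chr8:3690862-3691111 (minus strand) for the second of 3 starts of Fcer2a. Position -1 is the last base of a window, next to the start. Capitals mark matches to 4 short motifs, searched on both strands, and no match overlapped one of another motif. The PU.1-type motif was GAGGAA. The GATA-type motif was AGATAA. The STAT6-type motif was TTCNNNNGAA. The GAS-type motif of STAT factors was TTCNNNGAA.
Fcgr2b: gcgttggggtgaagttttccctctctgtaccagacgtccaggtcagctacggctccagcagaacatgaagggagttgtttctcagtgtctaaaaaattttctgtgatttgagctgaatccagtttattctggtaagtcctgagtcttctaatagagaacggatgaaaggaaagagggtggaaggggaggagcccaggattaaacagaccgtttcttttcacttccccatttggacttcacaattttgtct
Fcgr4: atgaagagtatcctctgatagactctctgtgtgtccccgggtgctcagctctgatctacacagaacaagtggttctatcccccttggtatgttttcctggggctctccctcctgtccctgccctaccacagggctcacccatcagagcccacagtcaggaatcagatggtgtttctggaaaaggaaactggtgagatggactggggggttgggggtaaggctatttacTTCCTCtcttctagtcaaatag
Fcer1g: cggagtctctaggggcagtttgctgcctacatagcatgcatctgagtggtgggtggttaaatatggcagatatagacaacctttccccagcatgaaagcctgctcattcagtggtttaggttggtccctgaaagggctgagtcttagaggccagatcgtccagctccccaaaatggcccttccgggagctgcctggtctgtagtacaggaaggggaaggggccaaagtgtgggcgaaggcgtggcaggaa
Fcer1a: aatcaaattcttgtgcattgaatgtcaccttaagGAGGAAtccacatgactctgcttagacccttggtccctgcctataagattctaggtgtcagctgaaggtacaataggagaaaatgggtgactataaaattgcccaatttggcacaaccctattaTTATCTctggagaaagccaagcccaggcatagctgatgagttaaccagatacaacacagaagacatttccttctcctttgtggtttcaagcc
Ms4a2: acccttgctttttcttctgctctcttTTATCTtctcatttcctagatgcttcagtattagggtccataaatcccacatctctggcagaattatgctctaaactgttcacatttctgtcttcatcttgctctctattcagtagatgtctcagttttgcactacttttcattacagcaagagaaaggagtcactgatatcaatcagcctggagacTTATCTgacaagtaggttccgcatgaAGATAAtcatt
Fcer2a: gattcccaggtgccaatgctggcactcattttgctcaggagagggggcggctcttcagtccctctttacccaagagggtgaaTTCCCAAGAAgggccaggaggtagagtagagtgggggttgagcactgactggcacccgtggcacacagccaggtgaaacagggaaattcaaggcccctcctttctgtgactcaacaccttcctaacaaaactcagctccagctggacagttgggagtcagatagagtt

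The 9 members had 12 windows, some of which overlap. The windows of Fcgr2b, Fcer1g and Fcgrt held none of these letters. Fcgr4 held TTCCTC, the reverse complement of GAGGAA, at positions -22 to -17, and Fcgr3 held it in the shared part of its 2 overlapping windows, ending 1 and 10 bases before their starts. Fcgr1, a gene known to be induced by interferon-gamma, held TTCCCAGAA at -109 to -101, a GAS-type match, and TTCCTC at -55 to -50. Fcer1a held GAGGAA at -216 to -211 and TTATCT, the reverse complement of AGATAA, at -92 to -87. Ms4a2 held 3 GATA-type matches, at -224 to -219, -37 to -32 and -11 to -6. The second start of Fcer2a held TTCCCAAGAA at -168 to -159, a STAT6-type match, and the windows of its other starts held none. Over 32536 windows of this length, the shares with a match were 23.4% for GAGGAA, 9.97% for AGATAA, 5.89% for TTCNNNNGAA and 7.04% for TTCNNNGAA. These matches are descriptions of sequence and were tied to no value on the arrays.

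Across the group, no member probe passed the test over all probes. limma called 0 of 7 tested members at an adjusted p under 0.05, and 0 of all 27154 probes (0.0%). At an unadjusted p under 0.05 there was 1 of 7 members, where 9.58% of all tested probes were. This 1 member was lower (Fcer2a), where 5.59% of all tested probes were lower, while 0 of 7 members were higher, where 3.99% of all tested probes were higher. Past 1.5-fold at that p, the threshold of the study's methods, there were 0 of 7 members against 2.11% of all tested probes. The members' log2 differences ran from -0.46 to 0.23 with a median of 0.01, beside a median of -0.003 over all tested probes, and the median of their absolute log2 differences was 0.219, beside 0.117. In 5 of 7 members the arrays of the 2 genotypes did not overlap, 2 with both arrays labelled S1pr2-/- lower (Fcgr2b and Fcer2a) and 3 with both higher (Fcgr4, Fcgrt and Fcer1g). Such separation was met by 41.7% of all tested probes, 21.8% lower and 20.0% higher.

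**Figure D1:**
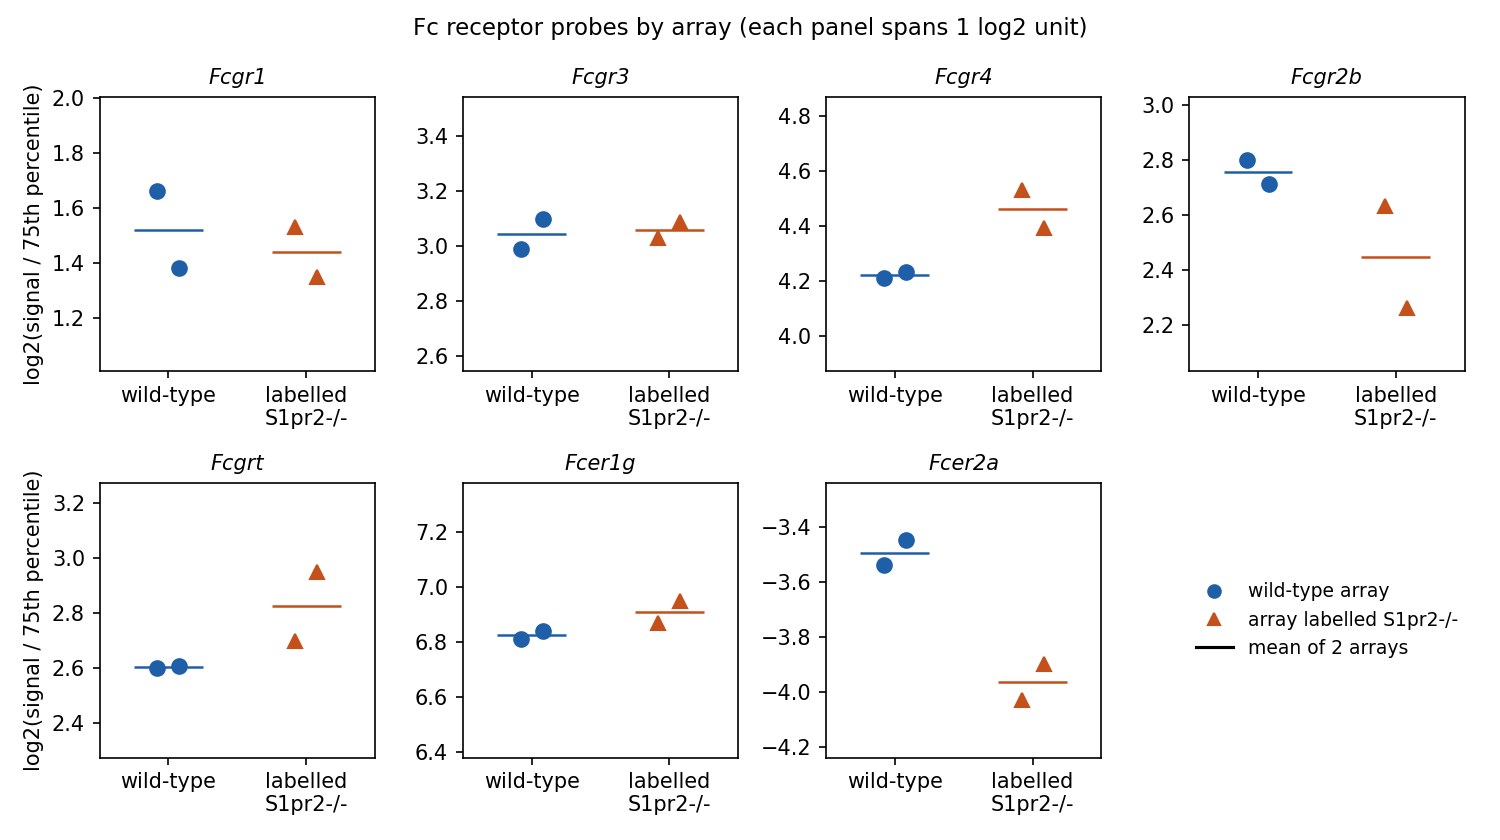
Log2 of the signal over the 75th percentile of the array for the 7 Fc receptor probes well above background, by array, with circles for wild-type, triangles for arrays labelled S1pr2-/- and bars for the mean of 2 arrays. Each panel spans 1 log2 unit around its own probe, so heights may be read only within a panel. The triangles lie above both circles for Fcgr4, Fcgrt and Fcer1g, below them for Fcgr2b and Fcer2a, and overlap their range for Fcgr1 and Fcgr3.

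Of the activating IgG receptors, Fcgr4 (probe A_51_P181517), which binds IgG2 subclasses and is carried by monocytes, macrophages and neutrophils, read, on the log2 scale, 4.21 and 4.23 in wild-type cells and 4.53 and 4.39 in cells labelled S1pr2-/-. Both arrays labelled S1pr2-/- were above both wild-type arrays. The log2 means were 4.22 ± 0.02 and 4.46 ± 0.10 (SD, n = 2 arrays each), a 1.18-fold higher signal on the arrays labelled S1pr2-/-, with a log2 difference of 0.23 (SE 0.0775, 95% interval -0.00081 to 0.47, limma adjusted p = 0.521). The unadjusted limma p of 0.0504 lay just outside 0.05.

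Fcgr3 (probe A_52_P408757), the low-affinity activating receptor for IgG1 immune complexes, was the member with the smallest difference. Its log2 values were 2.99 and 3.1 in wild-type cells and 3.03 and 3.09 in cells labelled S1pr2-/-. The genotypes overlapped, and the log2 difference of 0.01 (SE 0.0726, limma adjusted p = 0.968) had a 95% interval from -0.21 to 0.23. It was -0.04 without wild-type replicate 1 and -0.01 without S1pr2-/- replicate 2.

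Fcgr1 (probe A_55_P2008740), the high-affinity receptor for monomeric IgG2a, lies apart from the other IgG receptors on chromosome 3. It read, on the log2 scale, 1.66 and 1.38 in wild-type cells and 1.53 and 1.35 in cells labelled S1pr2-/-. The genotypes overlapped here as well. The log2 difference of -0.08 (SE 0.143, limma adjusted p = 0.86) had a 95% interval from -0.51 to 0.36, and it had the other sign without wild-type replicate 1 (0.06) or without S1pr2-/- replicate 2 (0.01).

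Markers of monocytes and monocyte-derived macrophages, cells that also carry these receptors, were measured beside them. The summed signal of the 8 genes with a probe was 134 to 211 times the 75th percentile on the wild-type arrays and 162 to 223 times on the arrays labelled S1pr2-/-. Csf1r took 96.8 and 89.6 times of these sums against 92.3 and 83.3 times. Apoe took 71.4 and 13.3 times against 65.6 and 35.2 times. Of these 8, 4 were above both wild-type arrays on both arrays labelled S1pr2-/- (20.0% of all tested probes were) and 4 overlapped. The log2 differences of the 4 that were above were between 0.54 and 0.67. The median of the 8 was 0.56, with 0 at an unadjusted limma p under 0.05. Neutrophil markers summed to 37.4 to 52.3 times on the wild-type arrays and 23.7 to 32.6 times on the arrays labelled S1pr2-/-. Retnlg took 6.29 and 20.2 times of these sums against 0.289 and 0.555 times. Of the 7 tested neutrophil markers, 4 were lower and 0 higher on both arrays labelled S1pr2-/- (21.8% and 20.0% of all tested probes) and 3 overlapped. Past 1.5-fold at an unadjusted limma p under 0.05 there were 2, both lower (2.11% of all tested probes). The log2 differences of these markers ran from -4.81 to 0.36 with a median of -0.32. The part of these cells in the values of Fcgr1, Fcgr3 and Fcgr4 was not tested.

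Fcgr2b (probe A_51_P130095), the inhibitory receptor, was the IgG receptor with the largest difference. Its log2 values were 2.80 and 2.71 in wild-type cells and 2.63 and 2.26 in cells labelled S1pr2-/-, so that both of the latter were lower. The log2 means were 2.75 ± 0.07 and 2.44 ± 0.26 (SD, n = 2 arrays each), a 1.24-fold lower signal with a log2 difference of -0.31 (SE 0.158, 95% interval -0.79 to 0.17, limma adjusted p = 0.592). This probe was printed in 10 spots on every array, and their log2 values had an SD between 0.037 and 0.056 within an array. The gap between the 2 arrays labelled S1pr2-/- was 0.37, beside a mean absolute gap of 0.199 between these arrays over all tested probes. Without S1pr2-/- replicate 1 the log2 difference was -0.50 (an unadjusted p of 0.0258 from limma), and without S1pr2-/- replicate 2 it was -0.13, the smallest of the 4 fits that left out 1 array. Fcgr2b is also known on B cells and mast cells, whose markers are given with the IgE receptors below.

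The balance of activating and inhibitory receptors was followed within each array as the log2 value of an activating chain minus that of Fcgr2b, a measure chosen after the values were seen. Its level depends on the probes and carries no meaning, whereas its difference between arrays is free of the scaling of the array. For Fcgr4 minus Fcgr2b the log2 values were 1.41 and 1.53 in wild-type cells and 1.90 and 2.13 in cells labelled S1pr2-/-. Both arrays labelled S1pr2-/- were higher, by 0.55 on the log2 scale (1.46-fold), with means of 1.47 ± 0.08 and 2.01 ± 0.16 (SD, n = 2 arrays each). With any 1 array left out the difference was between 0.43 and 0.66. Fcgr3 minus Fcgr2b gave 0.19 and 0.39 against 0.40 and 0.83, a difference of 0.33 on the log2 scale in which the nearest arrays were almost level, and which ran from 0.11 to 0.54 with 1 array left out. Fcgr1 minus Fcgr2b gave -1.14 and -1.33 against -1.10 and -0.91, a difference of 0.23 (0.14 to 0.33 with 1 array left out). With 2 arrays against 2, an exact two-sided permutation test cannot give a p under 0.333, and these differences were given no test. All of these measures subtract the same Fcgr2b values, so they are not separate observations. Taken alone, Fcgr2b differed by -0.31 on the log2 scale, Fcgr4 by 0.23, Fcgr3 by 0.01 and Fcgr1 by -0.08. The measures for Fcgr3 and Fcgr1 therefore follow mainly the Fcgr2b probe.

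**Figure D2:**
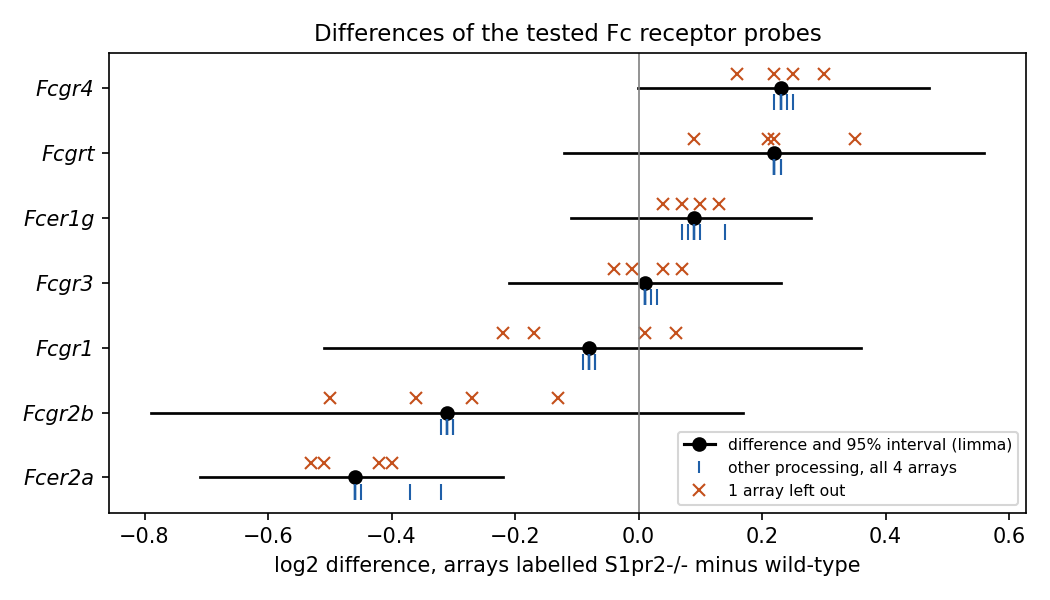
Log2 difference, arrays labelled S1pr2-/- minus wild-type, for the 7 tested Fc receptor probes, with the 95% interval from limma as a line. Blue ticks are the same difference under other processing of all 4 arrays and crosses are fits with 1 array left out. The interval of Fcer2a, from -0.71 to -0.22, is the only one that does not reach 0, and the crosses of Fcgr1 and Fcgr3 lie on both sides of 0.

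Fcgr2b, Fcgr4 and Fcgr3 stand in this order on chromosome 1 with 0 protein-coding genes between neighbours, and 7 such genes separate Fcgr3 from Fcer1g. The log2 differences along this run were -0.31, 0.23, 0.01 and 0.09. The first pair of neighbours thus had differences of opposite sign, each with an interval that included 0. The extracellular parts of these receptors are similar in sequence, and whether their probes capture transcripts of each other was not tested.

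Fcgrt (probe A_51_P161890), the recycling receptor on chromosome 7, read, on the log2 scale, 2.60 and 2.61 in wild-type cells and 2.70 and 2.95 in cells labelled S1pr2-/-. Both arrays labelled S1pr2-/- were higher, though 1 of them by little. The signal was 1.16-fold higher on these arrays, with a log2 difference of 0.22 (SE 0.112, 95% interval -0.12 to 0.56, limma adjusted p = 0.594), and the log2 difference was 0.35 without S1pr2-/- replicate 1 (an unadjusted p of 0.0296 from limma) and 0.09 without S1pr2-/- replicate 2. B2m, the light chain that Fcgrt needs to leave the endoplasmic reticulum, gave 6.75 and 6.93 against 6.79 and 6.79, with a log2 difference of -0.05 (SE 0.0877, limma adjusted p = 0.842).

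Of the 3 chains of the high-affinity IgE receptor, the shared gamma chain gave a signal and the alpha and beta chains did not rise above background. Fcer1g (probe A_51_P405476) had processed intensities of 286324 and 285656 in wild-type cells and 329050 and 319159 in cells labelled S1pr2-/-, with 0 saturated spots, which lay at 112, 115, 117 and 124 times the 75th percentile. Both arrays labelled S1pr2-/- were the higher ones by a small margin. Its log2 means were 6.83 ± 0.02 and 6.91 ± 0.06 (SD, n = 2 arrays each), a 1.06-fold higher signal with a log2 difference of 0.09 (SE 0.0645, 95% interval -0.11 to 0.28, limma adjusted p = 0.686). The log2 difference was 0.04 without S1pr2-/- replicate 2 and 0.14 under quantile normalization.

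Fcer1a (probe A_55_P2120244), the chain that binds IgE, was not well above background on any of the 4 arrays. Its processed intensities were 5.24 and 8.09 in wild-type cells and 4.08 and 6.04 in cells labelled S1pr2-/-, under the lowest intensity called well above background on each array, which was 23.7, 17.5, 18.66 and 14.8. Of the 153 negative control spots, the share below it was 45.1% and 95.4% in wild-type cells and 45.8% and 98.7% in cells labelled S1pr2-/-. Within each genotype, then, replicate 1 placed this probe in the middle of the negative controls and replicate 2 near their top. The signal did not separate the genotypes and gives only an upper bound on each array, so no fold is given.

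Ms4a2 (probe A_55_P2176015), the beta chain that amplifies signalling in mast cells, was likewise not well above background on any array. Its processed intensities were 4.77 and 3.53 in wild-type cells and 3.77 and 2.98 in cells labelled S1pr2-/-. Between 5.2% and 8.5% of the negative control spots lay below it. The signal was therefore among the lowest of spots that match no mouse transcript, on arrays of both genotypes.

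**Figure D3:**
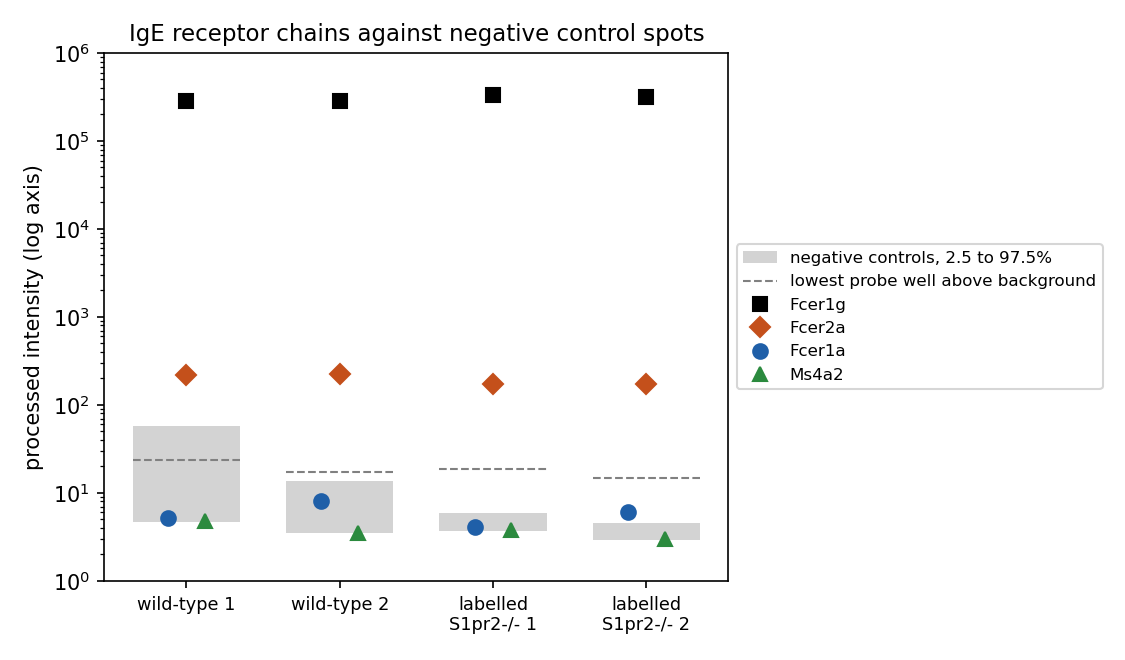
Processed intensity (log axis) of the 3 chains of the high-affinity IgE receptor and of Fcer2a on each array, beside the central 95% of 153 negative control spots (grey) and the lowest intensity called well above background (dashed). Fcer1g and Fcer2a lie above the dashed line on all 4 arrays, and Fcer1a and Ms4a2 lie below it on all 4. Heights of different probes are not comparable with each other, only with the background.

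Mast cells and basophils carry all 3 chains, and their other markers were sparse on these arrays. Of 10 marker genes 9 had a named probe and 5 were tested, while Mcpt8, Cma1 and Gata2 were well above background on 0 of 4 arrays. Cpa3, the carboxypeptidase of mast cell granules, was well above background on 2 arrays and at the floor on all 4. The summed signal of the markers was 0.871 to 0.967 times the 75th percentile on the wild-type arrays and 0.725 to 0.727 times on the arrays labelled S1pr2-/-. Hdc took 0.32 and 0.43 times of these sums against 0.229 and 0.263 times. Tpsb2 took 0.288 and 0.259 times against 0.234 and 0.246 times, and Kit 0.151 and 0.22 times against 0.221 and 0.18 times.

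The 5 tested markers of these cells did not all differ alike. Mcpt4, a mast cell chymase, had a log2 difference of -0.59 (SE 0.162, limma adjusted p = 0.514, with an unadjusted p of 0.0309), with values of -6.18 and -5.81 against -6.64 and -6.52, near the floor. Hdc, the enzyme that makes histamine, had a log2 difference of -0.60 (SE 0.19, limma adjusted p = 0.519, with an unadjusted p of 0.0459). Cd200r3 differed by -1.53 (SE 0.863, limma adjusted p = 0.619) on the log2 scale with 1 high wild-type array (-3.61 and -5.80 against -6.09 and -6.38), Tpsb2 by -0.19 and Kit by 0.13. For 4 of the 5 the arrays labelled S1pr2-/- were both lower (21.8% of all tested probes were), and Kit overlapped.

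Fcer2a (probe A_55_P2117345), the low-affinity IgE receptor, had the largest difference of the group. Its processed intensities were 219 and 227 in wild-type cells and 173 and 173 in cells labelled S1pr2-/-, against lowest intensities well above background of 14.8 to 23.7. The log2 values were -3.54 and -3.45 in wild-type cells and -4.03 and -3.90 in cells labelled S1pr2-/-, with the genotypes apart and replicates close. The log2 means were -3.50 ± 0.06 and -3.96 ± 0.09 (SD, n = 2 arrays each), a 1.38-fold lower signal with a log2 difference of -0.46 (SE 0.0817, 95% interval -0.71 to -0.22). limma gave an unadjusted p of 0.00851 and an adjusted p of 0.509, so the difference did not pass over all probes. It was smaller under normexp background correction (-0.32) and quantile normalization (-0.37), and without wild-type replicate 2 its unadjusted limma p was 0.0501.

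Markers of B cells, the best known site of Fcer2a, overlapped between the genotypes in 7 of 7 tested genes. Ms4a1, or CD20, gave log2 values of -1.40 and -3.10 in wild-type cells and -3.04 and -3.41 in cells labelled S1pr2-/-, a log2 difference of -0.98 (SE 0.685, limma adjusted p = 0.665). Cd79b, a chain of the B cell receptor complex, gave -0.18 and -1.84 against -1.34 and -1.99, a log2 difference of -0.66 (SE 0.696, limma adjusted p = 0.753). These 2 genes were highest on wild-type replicate 1. Cd79a had a log2 difference of -0.72 and was at the floor or close to it on the 3 other arrays, Cd22 differed by -0.21, Blk by 0.23 and Pax5 by 0.86, and Ebf1 was well above background on 1 array. The summed B cell signal was 1.60 to 2.95 times the 75th percentile on the wild-type arrays, highest on replicate 1, and 1.44 to 1.77 times on the arrays labelled S1pr2-/-. The part of B cells in the values of Fcer2a and Fcgr2b was not tested.

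Eosinophil markers separated the genotypes in the same direction as Fcer2a. All 5 tested genes were lower on both arrays labelled S1pr2-/- (21.8% of all tested probes were), and 4 of them were past 1.5-fold at an unadjusted limma p under 0.05 (2.11% of all tested probes). The part of eosinophils, and of mast cells and basophils, in the results for Fcer2a and Fcgr2b was not tested.

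**Figure D4:**
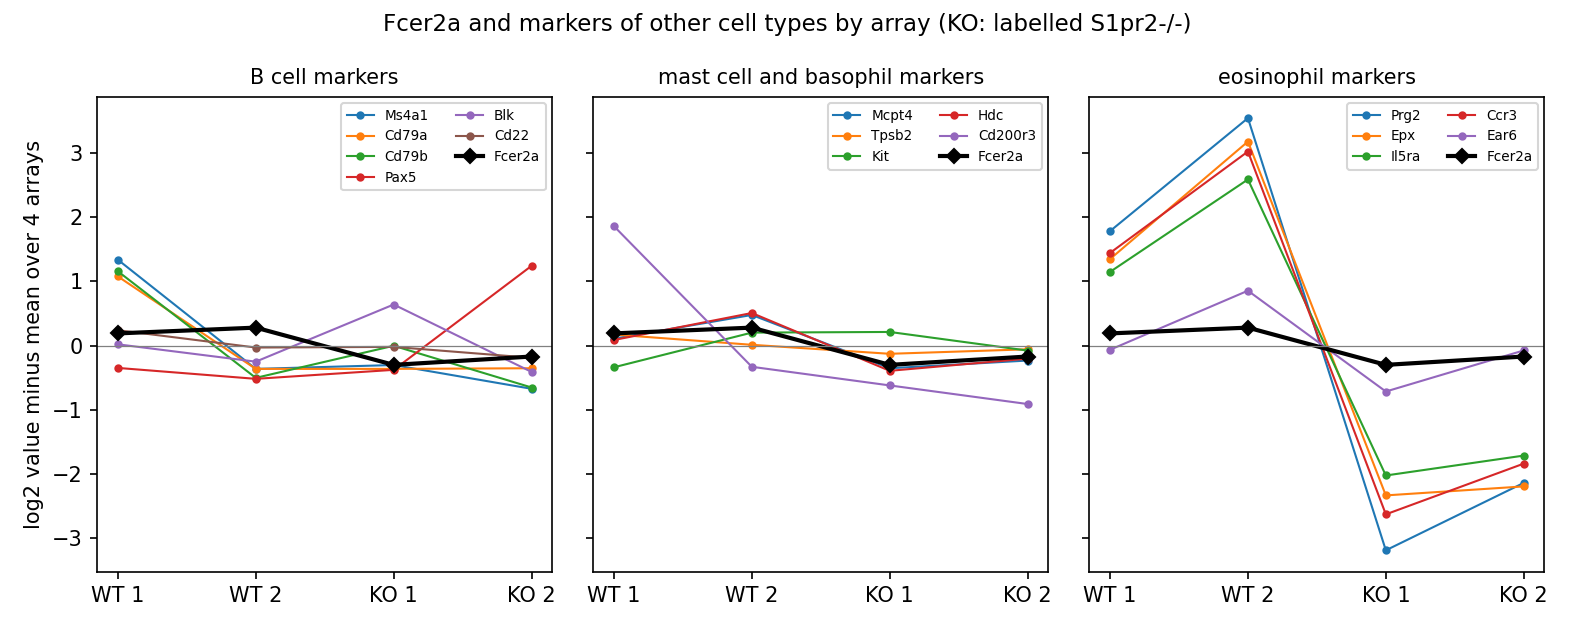
Log2 value minus the mean over the 4 arrays for Fcer2a (black) and for tested markers of B cells (6 of the 7 are drawn), of mast cells and basophils, and of eosinophils, on wild-type (WT) and S1pr2-/- labelled (KO) arrays. Lines only join the points of 1 gene. Ms4a1 and Cd79b stand out on wild-type replicate 1, Prg2, Epx, Il5ra and Ccr3 are high on both wild-type arrays, and Fcer2a moves within a narrow range.

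The 5 named genes whose centred log2 values lay nearest to those of Fcer2a over the 4 arrays were Acin1 (Euclidean distance 0.0544), Gphb5 (0.0554), Resf1 (0.0556), Helz2 (0.0646) and Ltb4r2 (0.0655). Their log2 differences were between -0.50 and -0.45. With only 4 arrays such likeness is a description, and none of these genes is a marker of a cell type in the lists used.

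The other genes of the pathway were taken from lists of 54 genes, of which 52 were tested. limma called 0 of them at an adjusted p under 0.05, 3 were lower and 2 higher at an unadjusted p under 0.05 (5.59% and 3.99% of all tested probes), and 0 were past 1.5-fold at that p (2.11% of all tested probes). Both arrays labelled S1pr2-/- were lower for 10 genes and higher for 8, and 34 overlapped, with a median log2 difference of -0.01. Over all tested probes 21.8% were lower and 20.0% higher in this way. The 7 tested members all lay between the 5th and the 95th percentile of all tested probes (-0.49 and 0.32).

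Activating signalling held 28 genes, 4 lower and 7 higher on both arrays labelled S1pr2-/- (21.8% and 20.0% of all tested probes), with a median log2 difference of 0.02. Syk, the kinase recruited by the gamma chain, gave log2 values of 4.87 and 4.81 in wild-type cells and 4.70 and 4.70 in cells labelled S1pr2-/- (log2 difference -0.14, SE 0.0587, limma adjusted p = 0.551). Lyn, a Src-family kinase that phosphorylates ITAMs, differed by -0.02 (SE 0.0658, limma adjusted p = 0.929). Lat2, an adaptor of phosphorylated receptors, had the largest positive difference in this list, 0.47 (SE 0.196, limma adjusted p = 0.551), from -0.86 and -0.88 to -0.16 and -0.64. Its relative Lat had the largest negative one, -0.52 (SE 0.23, limma adjusted p = 0.563). It went from 0.31 and 0.15 to -0.02 and -0.57, with both arrays labelled S1pr2-/- lower. Of 6 tested T cell markers, 3 were lower and 0 higher on both arrays labelled S1pr2-/- (21.8% and 20.0% of all tested probes), and 3 overlapped. Their median log2 difference was -0.36, and 1 was past 1.5-fold at an unadjusted limma p under 0.05 (2.11% of all tested probes). The part of T cells in the value of Lat was not tested.

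Subunits of phosphoinositide 3-kinase, an enzyme that phagocytosis through Fc receptors needs, made up 5 of the 28 genes. Pik3r5, a regulatory subunit, gave 1.88 and 1.85 in wild-type cells and 2.13 and 2.20 in cells labelled S1pr2-/- (log2 difference 0.30, SE 0.0626, limma adjusted p = 0.509, with an unadjusted p of 0.0144). The catalytic subunit Pik3cb differed by 0.22 (an unadjusted p of 0.034 from limma) and the catalytic subunit Pik3cd by -0.27 (an unadjusted p of 0.022). The catalytic subunit Pik3cg differed by 0.02 and the regulatory subunit Pik3r1 by 0.07. In the whole activating list 3 of 28 genes had an unadjusted p under 0.05, where 9.58% of all tested probes had. The subunits other than Pik3r5, and Syk, were named after their values were seen. So were Lyn, Lat, B2m, Apoe, Csf1r, Ear6, Retnlg, Trim21, Dok2, Inpp5d and Adam10.

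Inhibitory signalling held 10 genes, 2 lower on both arrays labelled S1pr2-/- (21.8% of all tested probes) and 8 overlapping, with a median log2 difference of -0.06. Inpp5d, or SHIP-1, the phosphatase that Fcgr2b recruits, gave 3.62 and 3.64 against 3.67 and 3.60, a log2 difference of 0.01 (SE 0.0606, limma adjusted p = 0.989). The adaptor Dok2, which restrains Ras signalling, gave 4.22 and 4.14 against 3.77 and 3.71, a log2 difference of -0.44 (SE 0.0664, limma adjusted p = 0.509, with an unadjusted p of 0.00528).

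Among the 10 relatives of the receptors, 8 were tested, 2 were lower, 1 was higher (21.8% and 20.0% of all tested probes) and 5 overlapped, and Fcrl6 and Fcamr were well above background on 0 of 4 arrays. Fcrls, an Fc receptor-like gene of mononuclear phagocytes, gave log2 values of -0.85 and -1.24 in wild-type cells and 0.12 and -0.65 in cells labelled S1pr2-/- (log2 difference 0.77, SE 0.341, limma adjusted p = 0.563). Fcmr, the IgM receptor of B cells, gave -0.74 and -2.40 against -1.99 and -2.50 (log2 difference -0.67, SE 0.677, limma adjusted p = 0.742). Fcrla, a gene of B cells, gave -2.20 and -3.26 against -2.92 and -3.66 (log2 difference -0.56, SE 0.509, limma adjusted p = 0.722). Both were highest on wild-type replicate 1, and the part of B cells in these values was not tested. Trim21, the cytosolic antibody receptor, differed by -0.28 (SE 0.0876, limma adjusted p = 0.519, with an unadjusted p of 0.0427).

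Of the 6 partners, 2 were lower (21.8% of all tested probes) and 4 overlapped. Cr2, or CD21, a complement receptor of B cells, gave -2.40 and -3.07 against -3.30 and -3.41 (log2 difference -0.62, SE 0.272, limma adjusted p = 0.561). Adam10, the protease that sheds Fcer2a from the cell surface, gave 3.40 and 3.31 against 3.47 and 3.38, a log2 difference of 0.07 (SE 0.0749, limma adjusted p = 0.759).

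**Figure D5:**
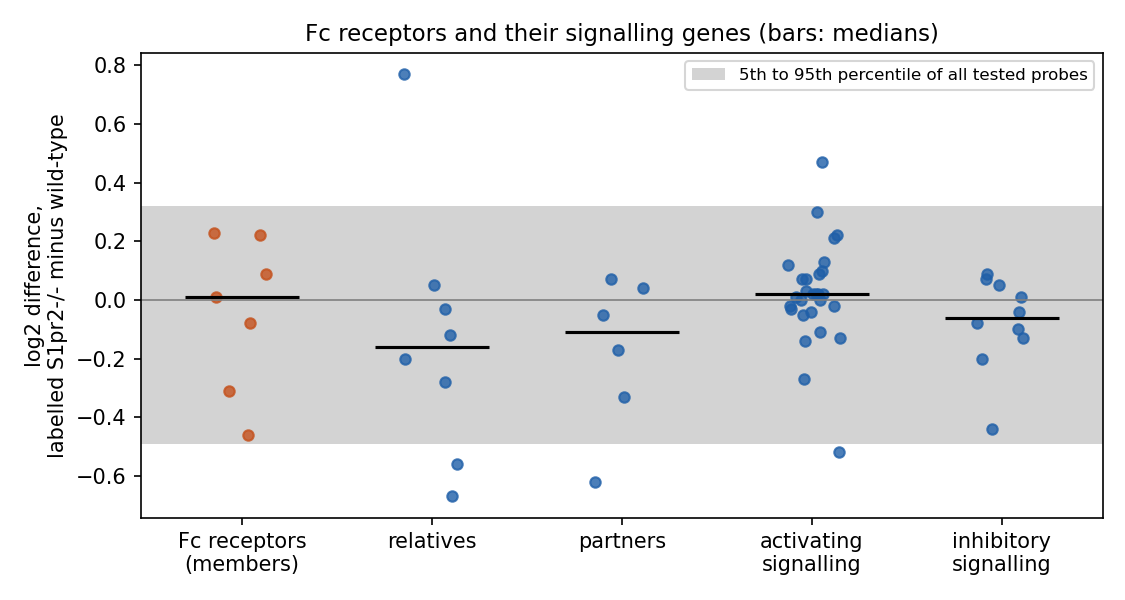
Log2 difference, arrays labelled S1pr2-/- minus wild-type, for the 7 tested Fc receptor probes and for the tested genes of the 4 pathway lists, 1 point per gene, spread sideways for legibility. Bars are medians and the grey band spans the 5th to the 95th percentile of all tested probes. The medians lie between -0.16 and 0.02, and Fcrls, at 0.77, is the highest point.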

How the data were processed

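BALF cell RNA was measured on 4 one-color arrays, 2 per genotype. The authors deposited scanner output with the processed intensity of every spot, corrected for background by Agilent Feature Extraction (version 10.7.3.1 in the submitters' processing notes, while the file headers name another version), with other columns that hold flags per spot, and a table of their own log2 values, normalized to the 75th percentile and to the wild-type arrays. That log2 table was used as an alternative and matched the scanner values within 0.01 for 99.9% of tested probes.

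Outlier-flagged spots (115 to 273 per array) were dropped, and no array held a saturated spot. Replicate spots of a probe were averaged on the intensity scale. The mean was divided by the 75th percentile of its array (2489.0 to 2817.2), taken over all non-control spots, flagged ones included. A floor of 0.01 was then set and log2 was taken. Genes were assigned by transcript accession in RefSeq (GRCm38.p6), which covered 69.5% of 39429 probes. The share of probes well above background was 67.6% to 72.2%. Of 39359 probes measured on all arrays, the 27154 that were well above background on the 2 arrays of 1 genotype or the other were tested with limma 3.58.1 (R 4.3.3), with Benjamini-Hochberg adjustment over all of them. The number of arrays limits the precision. Tables were handled with Python 3.11.15 and pandas 2.3.3, and the script was tested on simulated data.

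The text gives every member probe, the 3 tested pathway genes with the largest difference in each direction, every mast cell, basophil and B cell marker above background, and the 5 genes nearest to the member with the largest difference. For a gene with several probes outside the group, the one with the highest mean signal was used. The values of 1 marker gene are not reported here. The members and lists were chosen with earlier results of these data known. Alternatives were quantile normalization, a percentile over detected probes, normexp (offset 50, on the median signal of each spot), the authors' values, no floor, 2 other filters, outlier spots kept, the methods' t-test, a trended variance, a replicate block and each array left out.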

Additional observations from a re-analysis of the deposited data

How the results depend on the processing

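No member probe was called at an adjusted p under 0.05, or past 1.5-fold at an unadjusted p under 0.05, under any of the 11 alternatives or the 4 fits without 1 array (0 member probes in each). Over all probes, 0 were called lower and 0 higher by limma (2600 at an unadjusted p under 0.05), and normexp called 1 lower (Fbp1) and 1 higher (S1pr2). At an unadjusted p under 0.05 there was 1 member probe, 2 with a trended variance (Fcgr4 beside Fcer2a), and between 0 and 3 with 1 array left out: 0 without wild-type replicate 2, 3 without S1pr2-/- replicate 1 (Fcgr2b, Fcgrt and Fcer2a) and 2 without S1pr2-/- replicate 2 (Fcgr4 and Fcer2a). The cause was not tested. Pathway genes past 1.5-fold at an unadjusted p under 0.05 numbered 0, and 1 (Fcrls) with the replicate block; with 1 array left out they numbered 0 to 2, with Fcmr and Cr2 without wild-type replicate 2, Lat without S1pr2-/- replicate 1, and Lat2 and Fcrls without S1pr2-/- replicate 2. The log2 difference of Fcgr1 turned to 0.06 without wild-type replicate 1 and 0.01 without S1pr2-/- replicate 2, and that of Fcgr3 to -0.04 and -0.01 in the same fits (ranges over the 4 fits, -0.22 to 0.06 and -0.04 to 0.07). The adjusted p of Fcer2a ran from 0.339 to 0.682 and its log2 difference from -0.53 to -0.32. Whether a replicate number marks 1 of the 2 experiments is not given in the sources used here (correlation of paired deviations 0.187 over 2 pairs), and the replicate block changed no call of a member. A fit without 1 array lends the remaining array of that genotype the spread of the other genotype. Fcer1a and Ms4a2, not above background, allow no statement on a difference.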

Other observations

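2 relatives of the receptors had 2 named probes each, whose levels are not comparable with each other. One probe of Fcrl5, an Fc receptor-like gene of B cells, read 2.80 and 3.06 on the log2 scale in wild-type cells and 2.95 and 3.0 in cells labelled S1pr2-/-, and the other gave -6.23 and -6.31 against -6.28 and -6.64. One probe of Pigr, the epithelial receptor that carries IgA and IgM across mucosa, gave 6.42 and 6.10 against 6.06 and 6.06, and the other, named by the same transcript, gave -5.20 and -4.64 against -5.39 and -4.17. The log2 differences were 0.05 and -0.19 for the probes of Fcrl5 and -0.20 and 0.14 for those of Pigr, each with a 95% interval that included 0. The brighter probe of each gene entered the pathway lists, and these genes were chosen after their values were seen, as were the 2 that follow. Lgals3, which encodes the IgE-binding lectin galectin-3, gave 7.09 and 7.25 against 6.94 and 7.06, a log2 difference of -0.17, and Tyrobp, an ITAM adaptor related to the gamma chain, differed by 0.04.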
